A study of Mus musculus with 48 samples.

Results

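The 10 genes described here encode the cytoplasmic poly(A)-binding proteins and proteins that act through them: Pabpc1 and Pabpc4, their interacting proteins Paip1 and Paip2, the PAN nuclease subunits Pan2 and Pan3, and the Tob/Btg genes Tob1, Tob2, Btg1 and Btg2. They were taken by symbol from a table of 20171 genes, and each of the 10 had 1 row there. Their mRNAs were followed through RIP-seq, in which RNA bound to a tagged protein is pulled down with beads and sequenced. The mRNAs of the 4 Tob/Btg genes were recovered with HA-tagged Tnrc6a 11.9- to 26.5-fold over what the beads took from untagged cells, whereas the other 6 members lay between 0.677-fold and 1.26-fold.

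Poly(A)-binding proteins coat the tail of cytoplasmic mRNAs, where they promote translation and serve as a platform for other proteins. Several partners, among them Pan3, the Tob proteins, Paip1, Paip2 and the GW182 proteins, carry a short PAM2 peptide that docks on the MLLE domain of the poly(A)-binding protein. Tail shortening in mammalian cells begins with PAN and continues with the CCR4-NOT complex, and Tob and Btg proteins bring CCR4-NOT to the tail. Tnrc6a, a mouse GW182 protein, links Argonaute to these deadenylases in microRNA silencing. The proteins encoded by the members are therefore partners of the tagged protein or of its partners, but RIP-seq measured their mRNAs, not the proteins.

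All cells were mouse embryonic stem cells (129S6/SvEvTac) with a yGlob reporter, GFP_5xT71BS, and a stably transfected FLAG-Cas9::T2A::Blasticidin construct, so that controls and knockouts share these. The groups were untagged cells, HA-Tnrc6a cells (HA-AVI-Tnrc6a), the same tagged line labelled Ago2-/-, and the same tagged line labelled Upf1-/-. Each gave lysate RNA (input) and RNA recovered on HA beads (IP), in 2 experiments of 3 libraries per group, 48 libraries in all. Cultures were triplicate dishes, and how many clones stand behind a genotype is unknown, so p-values measure the spread between dishes.

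Total counts were 11471544 to 19595405 in experiment 3 and 25724085 to 73845953 in experiment 4. In the inputs 9 embryonic stem cell markers had medians of 398 to 1550 counts per 1000000 of a library (CPM), and the markers of fibroblasts, endoderm, trophectoderm, mesoderm and neural cells that the table holds had medians of 0.197 to 25.8 CPM. Ago2 mRNA was lower in Ago2 knockout inputs by a log2 fold change of -1.21 ± 0.03 (SE). Upf1 mRNA was not lower in the inputs labelled Upf1 knockout (log2 fold change 0.58 ± 0.03), and those libraries are called labelled Upf1 knockout throughout. Tnrc6a mRNA itself was recovered at 7686 to 58810 CPM in the 18 tagged IPs and at 56.6 to 105 CPM in the 6 untagged IPs. Every member had at least 122 counts in each of the 48 libraries and passed the filter on low counts in every comparison.

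In lysates the members covered a wide range, and the poly(A)-binding proteins led. Per kilobase of gene length, Pabpc1 had the highest median level over the 24 inputs, 381 CPM per kb, with a range of 306 to 417. Pabpc4 followed at 85.6 CPM per kb and Paip2 at 44.4, and none of these 3 ranges touched the next. Tob1 stood at 17.7 CPM per kb (10.2 to 28.1), Btg2 at 11.6 (9.15 to 17.3) and Paip1 at 11.1 (9.27 to 13.2), with ranges that overlap. Below them Pan2 at 6.46 CPM per kb and Btg1 at 6.24 also overlapped, and Pan3 at 3.42 (2.91 to 4.05) and Tob2 at 2.43 (2.09 to 3.01) came last. In the 18 tagged IPs the order changed: Tob1 ranked first with a median of 346 CPM per kb, ahead of Pabpc1 at 265 and Btg2 at 176, although the ranges of Tob1 (265 to 523) and Pabpc1 (218 to 329) overlap.

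**Figure D1:**
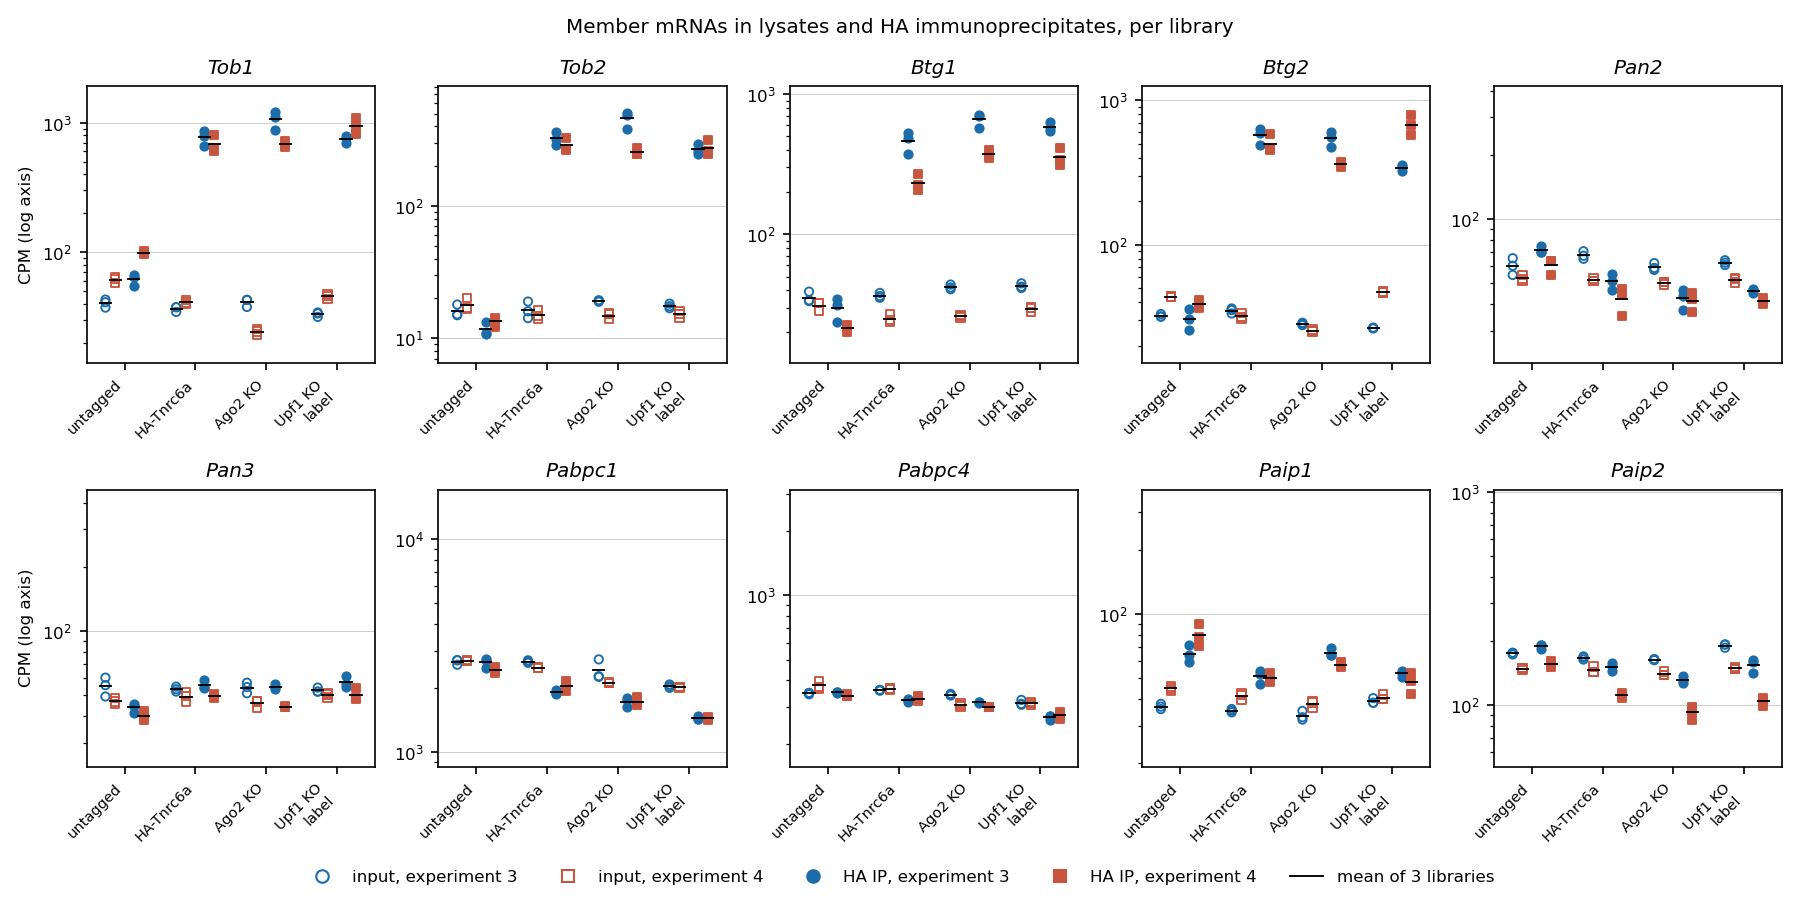
CPM of each member (log axis) per library in 4 genotypes, with inputs as open and HA IPs as filled symbols, experiment 3 in blue and experiment 4 in red, and a black line at the mean of 3 libraries. In the panels of Tob1, Tob2, Btg1 and Btg2 the tagged IPs lie far above the inputs and above the untagged IPs, while the IP means of the other 6 genes lie between 0.661-fold and 1.98-fold of their inputs.

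Tob1 and Tob2 encode closely related antiproliferative proteins that bind both the poly(A)-binding protein and the CCR4-NOT nucleases. Tob1 (ENSMUSG00000037573; GRCm38, chromosome 11, 94209842 to 94215495) was at 865.5, 791.5 and 657.1 CPM in the HA-Tnrc6a IPs of experiment 3 and at 799.2, 642.5 and 606.5 in those of experiment 4. The untagged IPs held 55.38, 64.84 and 66.87 CPM of it in experiment 3 and 99.47, 97.42 and 102.1 in experiment 4, so that the groups were far apart in both. Tob2 (ENSMUSG00000048546; chromosome 15, 81848270 to 81858326) was at 365.2, 320.1 and 287 CPM in the HA-Tnrc6a IPs of experiment 3 and at 328.4, 271.7 and 263 in experiment 4. Its untagged IPs ranged from 10.8 to 14.2 CPM, below the untagged inputs (14.92 to 17.97 in experiment 3 and 16.59 to 20.06 in experiment 4). The range of its inputs over all genotypes was 13.9 to 20.1 CPM. Tob2 was thus the member with the lowest median lysate level per kb, and its tagged IPs still lay far above both its inputs and its untagged IPs.

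Btg1 and Btg2 share the BTG domain with the Tob proteins, through which they bind the Caf1 nucleases of CCR4-NOT, and Btg2 is a well-known p53 target. Btg1 (ENSMUSG00000036478; chromosome 10, 96617001 to 96622813) was at 529.4, 482.5 and 371.5 CPM in the HA-Tnrc6a IPs of experiment 3 and at 267.7, 223.9 and 206.5 in experiment 4. Its untagged IPs lay between 20.0 and 34.5 CPM, and its level was lower in experiment 4 than in experiment 3 in the tagged IPs of all 3 genotypes. The means of its inputs in every genotype and of its untagged IPs were lower in experiment 4 as well. In HA-Tnrc6a inputs they were 36.6 CPM in experiment 3 and 24.9 in experiment 4, and in untagged IPs 29.9 and 21.6. Btg2 (ENSMUSG00000020423; chromosome 1, 134074865 to 134079155) was at 629.9, 597 and 492.1 CPM in the HA-Tnrc6a IPs of experiment 3 and at 585.7, 454.3 and 460.1 in experiment 4, against 25.5 to 41.6 CPM in untagged IPs. For each of the 4 genes the lowest of the 9 tagged IPs of an experiment exceeded the highest of its 3 untagged IPs, in both experiments. The same held for Pan3, whose recovery was small, and the share of all genes for which it holds was not counted.

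Recovery was measured as the log2 ratio of IP to input in tagged cells less the same ratio in untagged cells, averaged over the experiments and tested with edgeR's quasi-likelihood test with Benjamini-Hochberg adjustment over all genes. In HA-Tnrc6a cells 62.0% of 19993 genes were called at an adjusted p under 0.05, 29.8% as higher and 32.2% as lower, and the median log2 recovery was -0.0967. Of the 10 members 9 passed, 5 higher and 4 lower, which is a large share of a set in which most genes pass, so the sizes are more informative than the calls. Tob2 had a log2 recovery of 4.73 ± 0.12 (SE; adjusted p = 7.88e-26), a value above 99.7% of all genes. Btg2 followed at 4.13 ± 0.10, Btg1 at 3.83 ± 0.13 and Tob1 at 3.58 ± 0.10, above 99.4, 99.1 and 98.8% of genes. As IP over input without the untagged reference, Tob1 reached 21.0-fold in experiment 3 and 16.5-fold in experiment 4, and Tob2 19.8-fold and 19.2-fold. The median log2 recovery of the 4 Tob/Btg genes was 3.98, and that of the other 6 members was -0.32.

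Pan3 is the adaptor that ties the PAN nuclease to the poly(A)-binding protein and to GW182, and Pan2 is its catalytic partner. Pan3 (ENSMUSG00000029647; chromosome 5, 147426208 to 147548501) was at 59.06, 54.6 and 54.31 CPM in the HA-Tnrc6a IPs of experiment 3 and at 49.89, 48.75 and 50.73 in experiment 4, with untagged IPs of 38.5 to 45.7 CPM. The tagged IPs lay above the untagged IPs of their experiment, although by little, and the log2 recovery was 0.33 ± 0.07 (edgeR adjusted p = 0.000263). In untagged cells the Pan3 IP was 0.796-fold and 0.856-fold its input in the 2 experiments, and in HA-Tnrc6a cells 1.05-fold and 1.01-fold. With library totals in place of TMM scaling the Pan3 call was lost (log2 0.17, adjusted p = 0.0608). Pan2 (ENSMUSG00000005682; chromosome 10, 128303333 to 128321358) went the other way, with 55.56, 46.76 and 51.45 CPM in the HA-Tnrc6a IPs of experiment 3 and 70.06 to 74.78 in the untagged IPs. Its log2 recovery of -0.56 ± 0.09 (adjusted p = 1.03e-06) was the lowest among the members.

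The poly(A)-binding protein mRNAs were not enriched. Pabpc1 (ENSMUSG00000022283; chromosome 15, 36595658 to 36609581) was at 1893, 1870 and 1966 CPM in the HA-Tnrc6a IPs of experiment 3 and at 1930, 2078 and 2153 in experiment 4, below the untagged IPs of 2364 to 2738. Its log2 recovery was -0.29 ± 0.06 (adjusted p = 6.98e-05), made up of -0.48 ± 0.08 in experiment 3 and -0.09 ± 0.08 in experiment 4. That difference between the experiments did not pass the test (adjusted p = 0.124). Pabpc4 (ENSMUSG00000011257; chromosome 4, 123282303 to 123298925) encodes a second cytoplasmic form and stayed at -0.08 ± 0.06 (adjusted p = 0.237), with HA-Tnrc6a IPs of 315.1 to 337 CPM and untagged IPs of 336 to 353. The RefSeq annotation places Gm25788 and Gm22154 within the span of Pabpc4, so reads could be shared among them.

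Paip1 stimulates translation together with the poly(A)-binding protein, and Paip2 displaces the protein from the tail. Paip1 (ENSMUSG00000025451; chromosome 13, 119428331 to 119460323) was at 52.3, 53.9 and 46.88 CPM in the HA-Tnrc6a IPs of experiment 3 and at 52.9, 49.91 and 47.82 in experiment 4. The untagged IPs were higher in both, at 59.99, 64.23 and 71.72 CPM and at 89.5, 71.21 and 77.99 CPM. Recovery of Paip1 was accordingly -0.41 ± 0.08 on the log2 scale (adjusted p = 4.38e-05). Paip2 (ENSMUSG00000037058; chromosome 18, 35598610 to 35617186), which overlaps Slc23a1 in the annotation, had a log2 recovery of -0.34 ± 0.06 (adjusted p = 3.42e-06), with 108.5 to 157.4 CPM in HA-Tnrc6a IPs and 150.2 to 192 in untagged IPs. Experiment 3 alone lost both calls (log2 -0.22, adjusted p = 0.164 for Paip1, and -0.18, adjusted p = 0.166 for Paip2), and experiment 4 alone lost that of Pabpc1 (-0.15, adjusted p = 0.0628). No member's recovery over untagged cells passed the test of a difference between the 2 experiments, in any of the 3 tagged genotypes. Few genes did: 41 higher and 32 lower of 19993 in HA-Tnrc6a cells. In Ago2 knockout cells it was 588 and 640 of 19982, and in labelled Upf1 knockout cells 131 and 204 of 19910.

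What the beads took from untagged cells differed among the members and bears on each recovery value. Over input, 35.7% of 19299 genes passed in untagged cells, 18.0% higher and 17.8% lower, and 6 members did. Paip1 was higher in the untagged IP by a log2 fold change of 0.82 ± 0.06 (edgeR adjusted p = 1.47e-09), Tob1 by 0.65 ± 0.06 and Pan2 by 0.22 ± 0.06. Tob2 was lower at -0.44 ± 0.09, Btg1 at -0.39 ± 0.08 and Pan3 at -0.28 ± 0.06. Paip1 is therefore an mRNA that the beads held without a tag, at 1.77- and 1.78-fold over input in the 2 experiments, and in HA-Tnrc6a cells this ratio was 1.45 and 1.22. Experiment 3 alone called 2 of these 6, with 1399 genes higher and 573 lower of 17316. With library totals in place of TMM scaling 1997 genes were higher and 7559 lower, against 3465 and 3427, and the Pan2 call was lost (log2 0.05, adjusted p = 0.531).

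**Figure D2:**
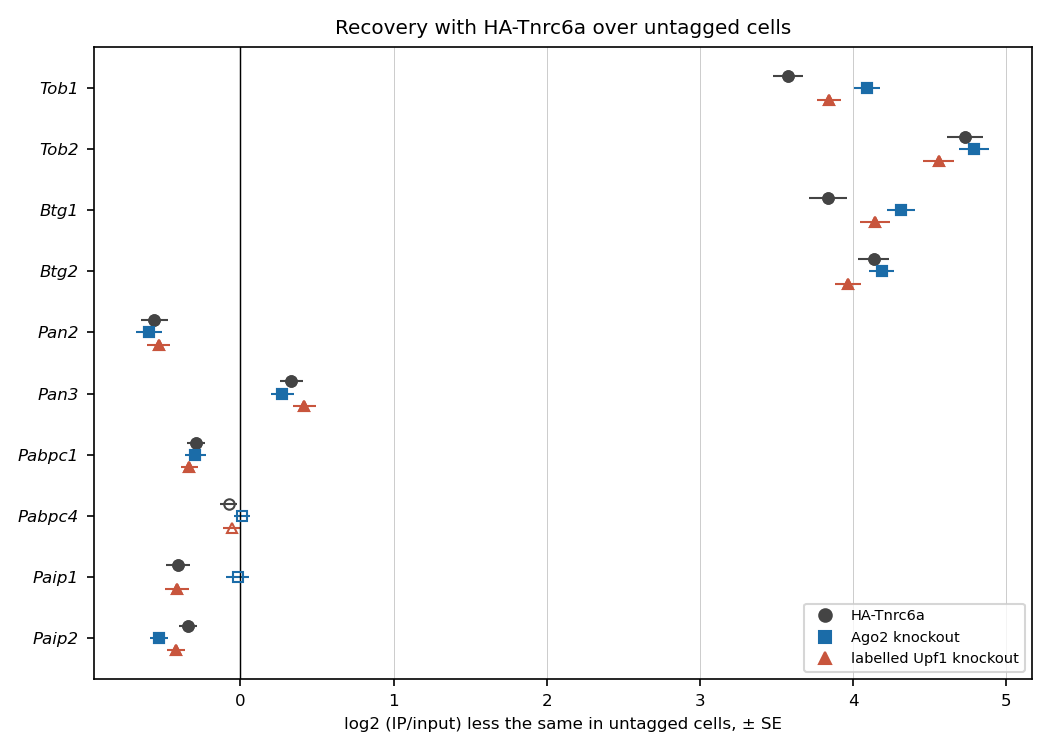
Log2 IP-over-input ratio less that in untagged cells (horizontal axis) for the 10 members in HA-Tnrc6a, Ago2 knockout and labelled Upf1 knockout cells, averages over 2 experiments with standard errors, filled where the adjusted p is under 0.05. The Tob/Btg genes sit between 3.58 and 4.79 in every genotype, and the other members between -0.60 and 0.42.

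The enrichment of the Tob/Btg mRNAs was present in both knockouts. These comparisons share the untagged libraries, so their values stand side by side and do not support each other. Of 19982 genes in the Ago2 knockout, 64.7% were called, 31.5% higher and 33.2% lower, as were 8 members, 5 higher and 3 lower, with log2 recoveries of 4.79 ± 0.10 for Tob2, 4.31 ± 0.09 for Btg1, 4.19 ± 0.08 for Btg2 and 4.09 ± 0.08 for Tob1. For the labelled Upf1 knockout, 63.6% of 19910 genes were called, 31.8% in each direction, along with 9 members, 5 higher and 4 lower. There Tob2 stood at 4.56 ± 0.10, Btg1 at 4.14 ± 0.10, Btg2 at 3.96 ± 0.09 and Tob1 at 3.84 ± 0.08. With library totals in place of TMM scaling, 4975 genes were called higher and 8694 lower in these cells, against 6338 and 6326. Pan3 was called higher in both (0.27 ± 0.07 and 0.42 ± 0.07), Pabpc1, Paip2 and Pan2 lower in both, and Pabpc4 in neither. Paip1 was lower in labelled Upf1 knockout cells (-0.41 ± 0.08) and stood at -0.02 ± 0.08 in Ago2 knockout cells (adjusted p = 0.851), where it was called lower in experiment 4 alone (-0.26, adjusted p = 0.00968) and when IPs were compared without inputs (-0.18, adjusted p = 0.0143). With library totals Pan3 lost its call in both knockouts (adjusted p = 0.169 and 0.0741), as it did in experiment 4 alone (0.146 and 0.0758), and Pabpc4 was called lower in all 3 genotypes.

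In 5 of the 6 tagged IP groups the library with the most Tnrc6a mRNA was also the highest of its 3 for all 4 Tob/Btg genes, and in the labelled Upf1 knockout IPs of experiment 3 it was so for 1 of them. That makes 21 of 24 combinations of gene and group, against 14 of 36 for the other members. The genes of a group share its libraries, so the combinations are not independent, and the count concerns the highest library only. It was not made for other genes recovered with HA-Tnrc6a, so it is not shown to be particular to the Tob/Btg genes. In the HA-Tnrc6a IPs of experiment 3, for example, Tnrc6a stood at 34240, 26130 and 19270 CPM and Btg1 at 529.4, 482.5 and 371.5. In experiment 4 the HA-Tnrc6a IPs held 12660, 8841 and 10550 CPM of Tnrc6a mRNA, less than in experiment 3, and Tob1, at 799.2, 642.5 and 606.5 CPM, had its other 2 libraries in the opposite order. Tob2 recovery was 4.75 ± 0.18 in experiment 3 and 4.70 ± 0.16 in experiment 4. The part that pull-down yield has in the values of single libraries was not tested.

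In Ago2 knockout cells the recovery of Tob1, Btg1 and Paip1 mRNA was higher than in HA-Tnrc6a cells, and that of Paip2 was lower. Against HA-Tnrc6a cells, 21.3% of 19995 genes changed in recovery (9.09% higher, 12.3% lower), with a median of -0.0376 on the log2 scale. Of the members 4 changed, 3 higher and 1 lower. Tob1 rose by 0.51 ± 0.10 (edgeR adjusted p = 0.000365), Btg1 by 0.47 ± 0.10 (adjusted p = 0.000764) and Paip1 by 0.38 ± 0.07 (adjusted p = 3.48e-05), and Paip2 fell by 0.20 ± 0.06 (adjusted p = 0.0161). The Paip1 rise ended near the bead background. Its IP over input was 1.98-fold and 1.51-fold in Ago2 knockout cells, against 1.77-fold and 1.78-fold in untagged cells. Its log2 recovery over untagged cells there was -0.02 ± 0.08 (adjusted p = 0.851). Tob2 at 0.06 ± 0.10 and Btg2 at 0.05 ± 0.09 did not pass, and neither did Pan2, Pan3, Pabpc1 or Pabpc4, which lay between -0.06 and 0.08. Tnrc6a mRNA was itself higher in Ago2 knockout than in HA-Tnrc6a inputs, by 0.51 ± 0.03 (adjusted p = 1.65e-17), and in the IPs its means were 50533 against 26547 CPM in experiment 3 and 13253 against 10684 in experiment 4. Its own recovery differed by 0.11 ± 0.17 (adjusted p = 0.716), and the part of its level in the Tob1, Btg1 and Paip1 values was not tested.

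The 2 experiments gave unequal weight to these changes. Tob1 recovery stood 0.28 ± 0.15 higher in Ago2 knockout than in HA-Tnrc6a cells in experiment 3 and 0.74 ± 0.14 higher in experiment 4, and Btg1 0.32 ± 0.14 and 0.61 ± 0.14. In experiment 3 alone both calls were lost (adjusted p = 0.342 and 0.246) and 1 member, Paip1, remained called, where 634 genes were higher and 989 lower of 18707. No member's change differed between the experiments by edgeR's test, which passed for only 23 genes as higher and 16 as lower of 19995. The absence of members there therefore says little about agreement. The lowest unadjusted p-values of that test among the members were 0.0349 for Tob1, 0.0457 for Tob2 and 0.0465 for Btg2. The Tob1 IPs of experiment 4 were nearly level between the genotypes, at 652.1, 663 and 721.3 CPM in the knockout and 606.5 to 799.2 in HA-Tnrc6a cells, while its inputs were lower in the knockout, at 25.82, 24.6 and 23.26 CPM against 39.8 to 42.96. In experiment 3 its knockout IPs were above HA-Tnrc6a IPs instead, at 1196, 874.8 and 1103 CPM, with inputs of 38 to 43.05. Btg1 differed in the IP itself in both experiments, at 713.8, 576.9 and 701.1 CPM in the knockout IPs of experiment 3 and 365.8, 350.2 and 401.6 in those of experiment 4. Without experiment 4 Ago2 knockout IP replicate 2 the Paip2 call was lost (adjusted p = 0.0618).

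**Figure D3:**
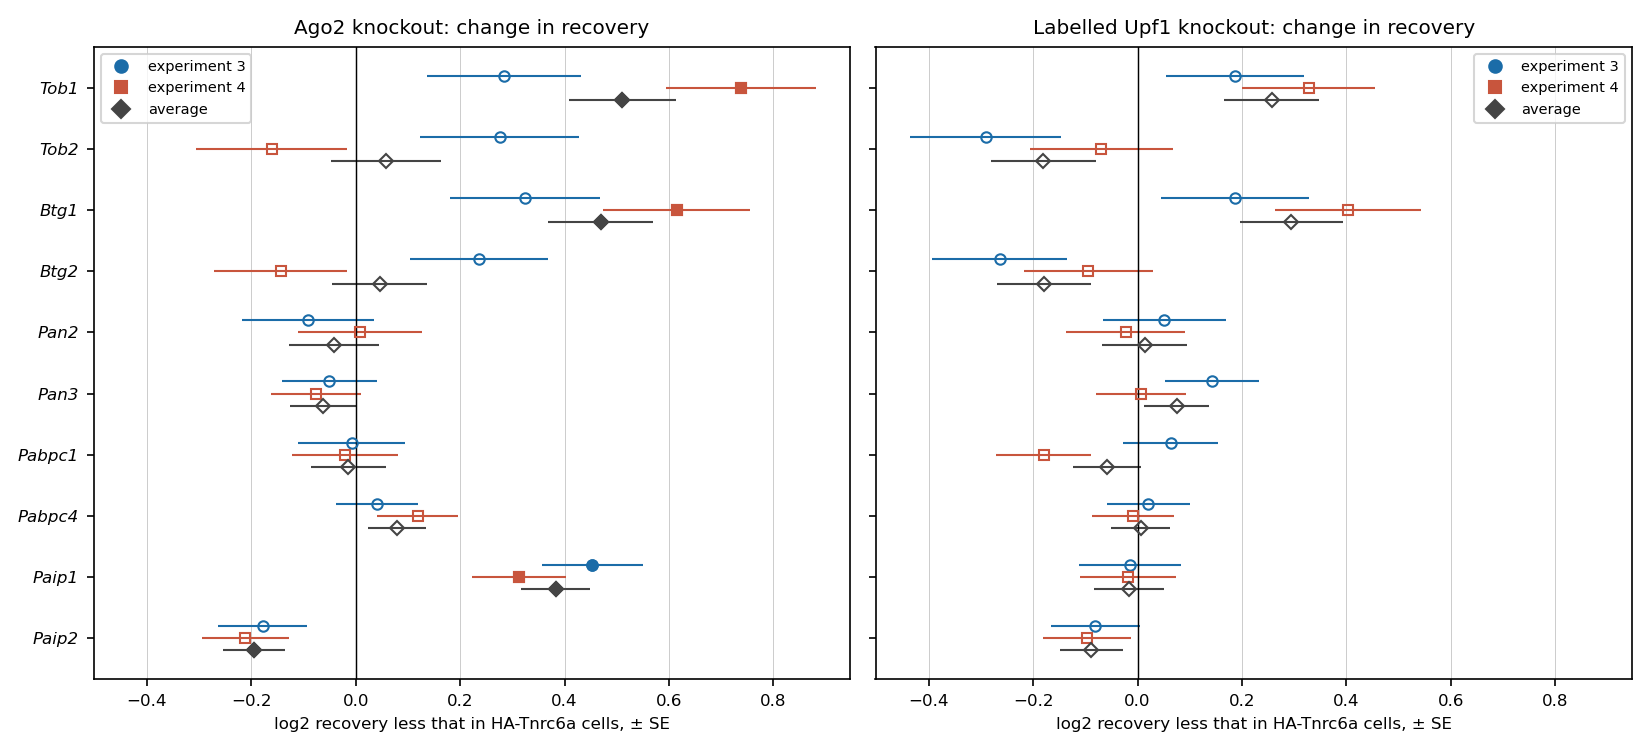
Change in log2 recovery against HA-Tnrc6a cells (horizontal axis) for each member in Ago2 knockout (left) and labelled Upf1 knockout cells (right), in experiment 3, in experiment 4 and on average, with standard errors and filled symbols where the adjusted p is under 0.05. Tob1, Btg1 and Paip1 lie to the right of 0 in the left panel, and no symbol is filled in the right panel.

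In labelled Upf1 knockout cells no member's recovery changed against HA-Tnrc6a cells by edgeR's quasi-likelihood test, in a comparison where 4.49% of 19966 genes did (2.92% higher, 1.57% lower). That is 583 genes higher and 313 lower, which became 352 and 315 with RLE size factors, 224 and 778 with library totals and 257 and 447 with all libraries in 1 fit. At an unadjusted p under 0.05 there were 2 members, against 3313 of the 19966 genes, and DESeq2 called 0 members. The 2 members were Tob1 at 0.26 ± 0.09 (adjusted p = 0.113) and Btg1 at 0.29 ± 0.10 (adjusted p = 0.09), while Tob2 and Btg2 both stood at -0.18, with standard errors of 0.10 and 0.09. When IPs were compared without their inputs, 4 members passed, among them Pabpc1 at -0.44 and Btg1 at 0.49. In that setting 4370 genes were called higher and 4435 lower of 18813, so the member count is no particular trait of the members.

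A direct comparison of the knockouts, in which 24.4% of 19962 genes differed in recovery (10.9% higher and 13.5% lower in Ago2 knockout), had 4 members higher in Ago2 knockout cells and none lower. The balance of all genes depended on the scaling, with 2174 higher and 2704 lower as given, and 3244 higher and 1870 lower with library totals. Paip1 was higher by 0.42 ± 0.07 (adjusted p = 6.5e-06), Tob1 by 0.28 ± 0.09 (0.0157), Btg2 by 0.25 ± 0.08 (0.0164) and Tob2 by 0.26 ± 0.09 (0.025). Paip1 was not enriched over untagged cells in either knockout, with log2 recoveries of -0.02 in Ago2 knockout and -0.41 in labelled Upf1 knockout cells. Btg1, at 0.20 ± 0.08, did not pass (adjusted p = 0.0661). For Tob2 the values were 0.57 ± 0.13 in experiment 3 and -0.05 ± 0.12 in experiment 4, and for Btg2 0.50 ± 0.11 and -0.01 ± 0.11, so their averages came from experiment 3. For Tob1 they were 0.10 ± 0.12 and 0.45 ± 0.12. In experiment 4 alone 2 members passed, Paip1 and Tob1, where 1329 genes were higher and 2378 lower of 19743. In experiment 3 alone the Tob1 call was lost (adjusted p = 0.407). The Tob2 call was also lost with RLE size factors (adjusted p = 0.053), with DESeq2 (0.0571) and without experiment 3 labelled Upf1 knockout input replicate 3 (0.0527), experiment 4 labelled Upf1 knockout input replicate 2 (0.0551) or experiment 4 Ago2 knockout input replicate 1 (0.0553).

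In lysates the poly(A)-binding protein mRNAs were lower in both knockouts. Relative to HA-Tnrc6a inputs, 58.6% of 19444 genes changed in labelled Upf1 knockout inputs (29.5% higher, 29.0% lower) and 30.9% of 19641 in Ago2 knockout inputs (15.7% higher, 15.2% lower). These comparisons share the HA-Tnrc6a inputs. Pabpc1 was at 2082, 2042 and 2008 CPM in the labelled Upf1 knockout inputs of experiment 3 and 2033, 1999 and 2032 in those of experiment 4, below the HA-Tnrc6a inputs of 2658, 2702 and 2631 CPM and of 2497, 2497 and 2493. The log2 change was -0.34 ± 0.02 (edgeR adjusted p = 4.18e-21). Its Ago2 knockout inputs held 2277, 2261 and 2730 CPM in experiment 3 and 2116, 2114 and 2146 in experiment 4, a change of -0.19 ± 0.04 (adjusted p = 0.000757). The library at 2730 stands apart from the other 5 Ago2 knockout inputs, and without it the change was -0.23. Pabpc4 fell in both as well, by 0.21 ± 0.02 in labelled Upf1 knockout and by 0.16 ± 0.02 in Ago2 knockout inputs. In experiment 3 alone the Ago2 knockout calls of both were lost (log2 -0.14, adjusted p = 0.16 for Pabpc1, and -0.07, adjusted p = 0.259 for Pabpc4). Fewer cells that carry an mRNA and less of it per cell cannot be told apart in such bulk lysates.

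The partners of the poly(A)-binding protein moved little. In Ago2 knockout inputs 6 members passed, 5 lower and 1 higher, and Pan2 was lower by 0.11 ± 0.03, while Pan3, Paip1 and Paip2 stood between -0.10 and -0.04. In labelled Upf1 knockout inputs 4 members passed, 2 in each direction, and Paip2 rose by 0.11 ± 0.02 (adjusted p = 9.99e-05), with Pan2, Pan3 and Paip1 between -0.05 and 0.06. In experiment 4 alone the Paip2 call (log2 0.04, adjusted p = 0.27) and the Ago2 knockout call of Pan2 (-0.04, adjusted p = 0.51) were lost, and Pan2 did not pass with all 48 libraries in 1 fit (adjusted p = 0.162). Btg1 rose in both, by 0.13 ± 0.04 in Ago2 knockout (adjusted p = 0.0202) and by 0.23 ± 0.04 in labelled Upf1 knockout inputs (adjusted p = 8.32e-06). The first of these calls was lost in experiment 4 alone (0.06, adjusted p = 0.501), with all 48 libraries in 1 fit (0.13, adjusted p = 0.27) and when any of 3 libraries was left out: experiment 3 HA-Tnrc6a input replicate 2 (adjusted p = 0.0582), experiment 3 Ago2 knockout input replicate 1 (0.0561) or experiment 4 HA-Tnrc6a input replicate 1 (0.0697).

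Lysate changes of Tob1 and Btg2 between genotypes depended on the experiment, with small spread among the 3 dishes of each group. Tob1 was at 43.03, 38 and 43.05 CPM in the Ago2 knockout inputs of experiment 3, against 37.76, 37.8 and 34.76 in HA-Tnrc6a inputs, and at 25.82, 24.6 and 23.26 CPM in experiment 4, against 41.19, 42.96 and 39.8. The groups do not overlap in either experiment, and they differ in opposite directions. The log2 change was 0.17 ± 0.06 in experiment 3 and -0.75 ± 0.06 in experiment 4 (adjusted p of the difference = 1.12e-10), so the average of -0.29 ± 0.04 describes neither. A difference between the experiments passed for 5.94% of genes in this comparison and for 2 members, Tob1 and Pabpc4, the latter with -0.07 ± 0.03 and -0.25 ± 0.03. Btg2, by contrast, was lower in the Ago2 knockout inputs of both experiments, by -0.30 ± 0.07 and -0.33 ± 0.06 on the log2 scale.

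Btg2 showed its opposite directions in the labelled Upf1 knockout. Its inputs held 26.65, 26.31 and 26.4 CPM in experiment 3, against 35.25, 36.16 and 33.42 in HA-Tnrc6a cells, and 46.54, 47.33 and 46.74 CPM in experiment 4, against 30.44, 31.45 and 33.67. The log2 changes were -0.41 ± 0.06 and 0.57 ± 0.05 (edgeR adjusted p of the difference = 6e-13), and the average of 0.08 ± 0.04 did not pass (adjusted p = 0.0831). Tob1 went the same way in these cells with smaller changes, -0.15 ± 0.06 and 0.17 ± 0.05 (adjusted p of the difference = 0.00427). Here 11.6% of genes and 2 members differed between the experiments. The experiments also differ in sequencing depth, whose part in these values was not tested.

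Untagged inputs differed from HA-Tnrc6a inputs for 2 members, Tob1 and Btg2, both higher, where 15.4% of 19407 genes did (7.67% higher, 7.74% lower). In experiment 4 untagged inputs had 64.41, 62.02 and 58.15 CPM of Tob1 and 43.67, 43.66 and 43.46 CPM of Btg2, above HA-Tnrc6a inputs for both. In experiment 3 the Tob1 values were 37.52, 41.3 and 43.27 CPM and overlapped those of HA-Tnrc6a cells. The averages were 0.36 ± 0.04 for Tob1 (adjusted p = 1.44e-06) and 0.17 ± 0.04 for Btg2 (adjusted p = 0.00912). Both differed between the experiments (0.15 ± 0.07 against 0.57 ± 0.06, and -0.12 ± 0.07 against 0.45 ± 0.06), as did 3.4% of genes. The count of 2 became 4 without experiment 3 untagged input replicate 1, with Btg1 and Pabpc1 added.

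Between the knockouts 62.3% of 19419 genes differed in lysates (31.4% higher and 30.9% lower in Ago2 knockout), and 6 members did. Pabpc1 was higher in Ago2 knockout inputs by 0.16 ± 0.04, and Paip1, Paip2, Tob1, Btg1 and Btg2 were lower, by 0.16 ± 0.04, 0.15 ± 0.03, 0.30 ± 0.04, 0.10 ± 0.04 and 0.39 ± 0.04. For Btg1 (adjusted p = 0.0394) the call was lost without any of 7 of the 12 libraries, namely experiment 3 Ago2 knockout replicates 2 and 3, experiment 4 Ago2 knockout replicates 1 and 2, experiment 3 labelled Upf1 knockout replicate 3 and experiment 4 labelled Upf1 knockout replicates 2 and 3 (adjusted p 0.0547 to 0.1). Tob1 again turned direction between the experiments, from 0.33 ± 0.06 to -0.93 ± 0.06. Btg2 went from 0.12 ± 0.07 in experiment 3 to -0.91 ± 0.06 in experiment 4, and in experiment 3 alone it did not pass (0.10, edgeR adjusted p = 0.271). A difference between the experiments passed for 13.1% of genes and for 4 members, Tob1, Btg2, Pabpc4 and Pan3.

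Tob1 and Btg2 were the members whose lysate changes between genotypes differed most between the experiments. The 250 bases before their RefSeq starts (GRCm38.p6) are therefore shown 5′ to 3′ on the gene's strand. Matches to the cyclic AMP response element, or to its first 5 bases TGACG, are in capitals. The Tob1 window (chr11:94211204-94211453, plus strand) lies inside the annotated gene span, before a start downstream of its outermost end, and the Btg2 window (chr1:134079156-134079405, minus strand) lies just outside the gene.
Tob1: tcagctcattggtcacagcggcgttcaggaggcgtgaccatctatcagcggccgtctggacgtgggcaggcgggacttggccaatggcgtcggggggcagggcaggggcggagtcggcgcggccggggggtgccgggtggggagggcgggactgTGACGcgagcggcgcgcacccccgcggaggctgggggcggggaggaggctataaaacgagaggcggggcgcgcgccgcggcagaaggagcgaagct
Btg2: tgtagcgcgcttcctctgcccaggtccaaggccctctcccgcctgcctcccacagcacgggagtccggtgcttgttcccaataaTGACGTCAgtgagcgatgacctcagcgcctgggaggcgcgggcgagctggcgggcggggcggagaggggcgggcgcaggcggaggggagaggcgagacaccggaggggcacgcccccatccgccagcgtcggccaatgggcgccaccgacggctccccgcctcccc
The full element TGACGTCA, a palindrome that binds CREB family factors, was found in the Btg2 window, and 1.55% of 32851 windows of this length hold it. TGACG on either strand, which the full element includes, was found in 17.8% of windows and in those of 5 of the 8 members in the promoter table (Btg1, Btg2, Paip1, Pan2 and Tob1). CCAAT on either strand was in 33.8% of windows and in 4 of the 8 members, Tob1 and Btg2 among them, and TATAAA on either strand in 12.4% and in Btg1, Pabpc4 and Tob1. These are matches of letters only.

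Other genes of tail metabolism were counted from 3 lists. Of 17 genes for tail shortening outside PAN, 11 were higher and 4 lower in recovery with HA-Tnrc6a over untagged cells, with a median of 0.25 on the log2 scale. The nucleases Cnot6l (3.81 ± 0.11) and Cnot6 (3.55 ± 0.10) lay near the Tob/Btg values, followed by Angel1 (2.75 ± 0.11) and Cnot9 (1.23 ± 0.06), a CCR4-NOT subunit that contacts GW182. Of 13 tail extending enzymes in the table, from a list of 14, 7 were higher and 0 lower by edgeR at an adjusted p of 0.05, with a median of 0.49. Tent4a (3.04 ± 0.09), which adds mixed tails, led Tent5c (2.42 ± 0.23), Tut1 (2.12 ± 0.08) and Tent5b (1.43 ± 0.15). Of 26 other poly(A)-binding and partner genes 21 were in the table, 10 higher and 7 lower with a median of 0.12, and past 2-fold were Btg3 (1.74 ± 0.09), a further Btg gene, and Pabpc1l (-1.40 ± 0.44), an oocyte form of the poly(A)-binding protein. Over all genes tested the shares were 29.8% higher and 32.2% lower, with a median of -0.0967.

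In the knockouts the same lists held further recovered mRNAs. For tail shortening 13 genes were higher and 2 lower in Ago2 knockout cells, with Cnot6l at 3.43 ± 0.10, Cnot6 at 3.09 ± 0.08 and Angel1 at 2.71 ± 0.12, and 11 were higher and 3 lower in labelled Upf1 knockout cells. There Cnot6 stood at 3.97 ± 0.08, Cnot6l at 3.79 ± 0.09, Angel1 at 3.20 ± 0.10, Cnot9 at 1.16 ± 0.06 and Pde12, a mitochondrial deadenylase, at 1.10 ± 0.08. For tail extension 8 were higher and 1 lower in Ago2 knockout cells, with Tent4a at 3.23 ± 0.08, Tut1 at 2.81 ± 0.09, Tent5b at 1.81 ± 0.16 and Tent5c at 1.56 ± 0.26. In labelled Upf1 knockout cells 8 were higher and 0 lower, with Tent4a at 3.24 ± 0.08, Tut1 at 2.49 ± 0.11, Tent5c at 2.13 ± 0.22 and Tent5b at 1.21 ± 0.15. The partner genes had 8 higher and 4 lower in Ago2 knockout cells, among them Btg3 (1.88 ± 0.08), Larp4b (1.54 ± 0.07) and Pabpc1l (-1.32 ± 0.53). In labelled Upf1 knockout cells they had 9 higher and 7 lower, among them Btg3 (1.75 ± 0.08), Mkrn1 (1.10 ± 0.07), Pabpc6 (-1.35 ± 0.39) and Pabpc1l (-1.34 ± 0.49). Over all genes tested the shares were 31.5% higher and 33.2% lower in Ago2 knockout cells. In labelled Upf1 knockout cells they were 31.8% in each direction.

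When recovery in the knockouts was set against HA-Tnrc6a cells, or lysates were compared, changes in these lists were small. In Ago2 knockout cells 5 tail shortening genes rose and 5 fell in recovery, 3 and 3 of the tail extending genes, and 4 and 2 of the partner genes. None of them passed with a log2 change of at least 1 in either direction. The same holds for the labelled Upf1 knockout, where 4, 1 and 1 genes of the 3 lists rose and 0, 0 and 1 fell. Over all genes tested 9.09% rose and 12.3% fell in Ago2 knockout cells, and 2.92% rose and 1.57% fell in labelled Upf1 knockout cells. In lysates Pabpc6, a further poly(A)-binding protein gene, was lower in labelled Upf1 knockout inputs (-1.09 ± 0.18) and in untagged inputs (-1.29 ± 0.20) than in HA-Tnrc6a inputs. Both values rest on the same HA-Tnrc6a inputs, and no other listed gene passed at that size.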

How the data were processed

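The authors deposited 1 table of raw read counts per gene and library, which are not normalized, with gene lengths in bases as a further value, per the file headers. The submitters' processing notes name bcl2fastq 2.20, STAR 2.7.3a and the builds GRCm38 and mm10. The annotation, filters and strand setting of counting are not given in the sources used here, so values of overlapping genes are uncertain. Of the per-sample columns 48 were used, and 48 further ones (headed rpkm) were not. Column names give genotype, fraction and a number from 1 to 6. Numbers 1 to 3 were taken as experiment 3 and 4 to 6 as experiment 4, an inference: totals of the sets do not overlap, and averages do not depend on which set is which.

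Counts were fitted with edgeR 4.0.16 (limma 3.58.1, R 4.3.3), with 1 coefficient per group and experiment, for the groups of each of 11 comparisons. Library sizes were scaled by TMM, low genes removed with filterByExpr (minimum count 10), and contrasts formed within each experiment, averaged with equal weight and tested by the robust quasi-likelihood F-test (two-sided). P-values were adjusted by Benjamini-Hochberg over all genes tested, and an adjusted p under 0.05 is a call. A standard error is the log2 fold change divided by the square root of F. CPM values are scaled by TMM over all 48 libraries, and a level per kb is CPM divided by the deposited length. Within groups, 48 pairs of libraries differed by a chi-square per degree of freedom of 1.93 to 34.05 over genes, where sampling noise alone gives about 1. Read counts lack molecular identifiers, so depth sets counting error only.

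The members, the 3 gene lists and the tests were chosen with earlier results of these data known. Named were all 10 members, listed genes past the threshold with a log2 fold change of at least 1 in size (at most 5 per list and comparison), Tnrc6a, Ago2 and Upf1 as a check of labels, and for likeness the 3 genes per member with the highest Pearson r, some of which are not reported here. RefSeq GRCm38.p6 gave positions and overlaps for 10 of 10 members by Entrez identifier. Replicate numbers were not taken to pair libraries. Alternatives were RLE factors, library totals, no filter, DESeq2 1.42.0, 1 fit of all libraries, a replicate block, each experiment alone, IPs without inputs and leaving out each library.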

Additional observations from a re-analysis of the deposited data

Results flagged for a closer look

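Of the 80 sets of 6 libraries (a member in a genotype and fraction), 2 held a library far from the other 5. The rule's chance rate of about 1 in 20 sets takes all 6 libraries as alike. Each set pools 2 experiments, so the count cannot be read against that rate. Both flagged libraries are Pabpc1 inputs of experiment 3. An untagged input, replicate 1, was at 2577 CPM with the other 5 at 2683 to 2712, and an Ago2 knockout input, replicate 3, was at 2730 CPM with the other 5 at 2114 to 2277. Without the untagged library the Pabpc1 lysate difference of untagged from HA-Tnrc6a cells was 0.07 and passed (edgeR adjusted p = 0.00479), and the log2 recovery of Pabpc1 over untagged cells was -0.28 in HA-Tnrc6a cells. Without the Ago2 knockout library the recovery of Pabpc1 over untagged cells was -0.25 in that genotype.

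Members whose lysate change differed between the experiments are given as the log2 change in experiment 4 less that in experiment 3, by edgeR's quasi-likelihood test of the difference. In Ago2 knockout against HA-Tnrc6a inputs these were Tob1 at -0.93 (adjusted p = 1.12e-10) and Pabpc4 at -0.18 (0.00944). In labelled Upf1 knockout against HA-Tnrc6a inputs they were Btg2 at 0.98 (6e-13) and Tob1 at 0.32 (0.00427). In untagged against HA-Tnrc6a inputs they were Btg2 at 0.57 (0.000253) and Tob1 at 0.43 (0.00667). Between the knockouts they were Tob1 at -1.26 (1.4e-16), Btg2 at -1.03 (1.41e-13), Pan3 at -0.22 (0.0429) and Pabpc4 at -0.19 (0.00447). The HA-Tnrc6a inputs enter 3 of these 4 comparisons.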

How the results depend on the processing

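The recovery of Tob1, Tob2, Btg1 and Btg2 over untagged cells kept its direction and call in all 33 alternatives for each gene and genotype, between 3.22 and 5.07 on the log2 scale. Outside the fits that left out a library, alternatives for a member's value kept direction and call 847 times, gained a call 46 times, lost it 34 times and reversed 13 times. Leaving out a library kept 2008 values, with 18 calls gained and 14 lost. The causes of changes were not tested.

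The count of members called fell in experiment 3 alone from 6 to 2 for the bead background, from 4 to 1 for recovery in Ago2 knockout against HA-Tnrc6a cells, from 6 to 3 for Ago2 knockout lysates and from 2 to 0 for untagged lysates. All-gene calls (higher and lower) fell too, from 3465 and 3427 of 19299 to 1399 and 573 of 17316 for the bead background. For that recovery they fell from 1817 and 2450 of 19995 to 634 and 989 of 18707. For Ago2 knockout lysates they fell from 3082 and 2983 of 19641 to 1868 and 1514 of 17985. For untagged lysates they fell from 1488 and 1502 of 19407 to 223 and 429 of 17823. In experiment 4 alone the count of members fell from 4 to 2 for recovery between the knockouts and rose from 2 to 5 for untagged lysates. All-gene calls went from 2174 and 2704 of 19962 to 1329 and 2378 of 19743 for that recovery. For untagged lysates they went from 1488 and 1502 of 19407 to 2163 and 2030 of 19304. The count of members rose from 0 to 4 for recovery in labelled Upf1 knockout cells when IPs were compared without inputs. There all-gene calls rose from 583 and 313 of 19966 to 4370 and 4435 of 18813. For untagged lysates the count of members was 1 with all libraries in 1 fit (879 and 1058 of 20170 genes) and 2 to 4 when a library was left out. Each experiment alone has fewer libraries than the average, and the part of that in these counts was not tested.

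A reversal is a change of sign where either value was called, so the alternative value itself need not pass. Lysate reversals in experiment 3 alone were Tob1 at 0.17 in Ago2 knockout (edgeR adjusted p = 0.0767) and Btg2 at -0.41 in labelled Upf1 knockout (6.41e-06). Btg2 was also at -0.12 in untagged cells (0.452), and between the knockouts Tob1 was at 0.31 (0.000301) and Btg2 at 0.10 (0.271). In experiment 4 alone Tob2 at -0.11 (adjusted p = 0.533) and Btg2 at -0.06 (0.729) reversed in recovery between the knockouts. With IPs compared without inputs, Pabpc4 reversed to -0.12 in Ago2 knockout over untagged (adjusted p = 0.0358) and to -0.24 in labelled Upf1 knockout against HA-Tnrc6a cells (0.00174). In that setting Btg2 reversed to -0.23 in Ago2 knockout against HA-Tnrc6a cells (0.0197), and Tob1 to -0.01 (0.959) and Btg2 to -0.13 (0.112) between the knockouts. Library totals moved the median log2 recovery over untagged cells from -0.0967 to -0.254 in HA-Tnrc6a, from -0.0683 to -0.221 in Ago2 knockout and from -0.0648 to -0.324 in labelled Upf1 knockout cells, and the bead background from -0.0259 to -0.197. Of 19993 genes they called 5121 higher and 7976 lower in HA-Tnrc6a cells. Pabpc4 recovery in Ago2 knockout cells then reversed to -0.14, a value above the shifted median.

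Calls were gained without some libraries. In experiment 3 these were untagged input replicate 1 (Pabpc1 in the bead background, Pabpc1 and Btg1 in untagged lysates), untagged IP replicates 1, 2 and 3 (Pabpc4 in labelled Upf1 knockout over untagged), untagged IP replicate 2 (Btg2 in the bead background), Ago2 knockout input replicate 1 (Paip1 in Ago2 knockout lysates) and labelled Upf1 knockout input replicate 1 (Pabpc4 between the knockout lysates). In experiment 4 these were HA-Tnrc6a input replicate 3 (Paip1 in Ago2 knockout and Btg2 in labelled Upf1 knockout lysates), untagged input replicate 3 (Btg1 in untagged lysates) and labelled Upf1 knockout IP replicate 1 (Pabpc4 in recovery between the knockouts). Btg1 passed in recovery between the knockouts without any of 5 libraries (adjusted p from 0.00299 to 0.0493).

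The labels do not tie replicate numbers to a shared dish or day. After centring within group and experiment, same-numbered libraries of different groups had a mean correlation of 0.068, and 57 of 168 such pairs lay over 0.1. The mean of -0.0335 for other numbers largely follows from that centring and is no separate reference. With the number as a replicate block the counts of members called were 7 for the bead background, 9, 8 and 9 for recovery over untagged in HA-Tnrc6a, Ago2 knockout and labelled Upf1 knockout cells, 4 and 0 for the knockouts against HA-Tnrc6a, 5 between the knockouts, and 7, 4, 2 and 7 for the lysates of Ago2 knockout, labelled Upf1 knockout, untagged and knockout against knockout. Depth limits Tob2 most, with a lowest count of 122 in a library, and its standard errors are among the largest of the members.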

Other observations

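Some genes outside the lists followed the members across libraries. After centring within fraction and experiment, the log2 CPM of Tob2 had its highest Pearson r over the 48 libraries with Plagl2 (0.995), Zfp629 (0.994) and Bahd1 (0.994). For Btg1 these were Stil (0.994), Hp1bp3 (0.993) and Irf1 (0.993), for Btg2 Zbtb7a (0.988), Polk (0.987) and Cbx6 (0.985), and for Tob1 Zbtb7a (0.986) and Fam102a (0.982). The points include tagged and untagged IPs, and the libraries of a group are not independent points.

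For members without such recovery the nearest genes were less close. Pabpc1 was nearest to Pcbp2 (0.951), Nutf2 (0.933) and Ppid (0.93), and Pabpc4 to Pabpc1 itself (0.905), Mta1 (0.863) and Stx3 (0.863). Paip2 was nearest to Tomm20 (0.942), Mapk8ip3 (0.942) and Snhg11 (0.938), and Pan2 to Pkn3 (0.9) and Spag5 (0.9). Pan3 was nearest to Usp25 (0.873), Kantr (0.868) and Septin8 (0.866), and Paip1 to Zfp330 (0.871), Hmgxb4 (0.866) and Pcf11 (0.864). Each r is a description over libraries that share their depth and pull-down, with no test.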
